A study of Homo sapiens with 12 samples.

Results

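Actinomycin D was compared with vehicle in unmodified HCT116 cells, a human colorectal carcinoma line, by total RNA sequencing after depletion of ribosomal RNA. The comparison took the 3 libraries labelled ActD and the 3 labelled control, 6 of the 12 libraries of the series, chosen by their treatment labels and not by any measured value. The ActD cells were wild type and received 5 µg/mL actinomycin D, and their titles give 6 h of treatment. The control cells were wild type and received DMSO, and their titles give 8 h, while the extraction text gives a harvest at 6 h, so the 2 groups may differ in time as well as in drug. Another 6 libraries, used below only where a difference from actinomycin D is tested, came from HCT116 lines whose POLR1A or POLR2A carries an auxin-inducible degron. The POLR1A line (POLR1A-AID1) had doxycycline, to switch on the OsTIR1 degradation factor, and 500 µM IAA for 8 h. The POLR2A line (POLR2A-AID2) had 1 µM 5-Ph-IAA for 8 h. These are engineered lines, so those comparisons differ in genotype, ligand, inducer and time too. Replicates were separate dishes treated on a single day and described as technical, so every p-value below measures the spread between dishes only.

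Actinomycin D inserts into DNA at GC-rich sites and stalls RNA polymerases, with RNA polymerase I the most sensitive at low doses and all nuclear polymerases blocked at high doses. It is widely used to stop RNA synthesis, after which transcripts with short lives disappear first and long-lived ones make up a growing share of what is left. Messenger RNAs of immediate early genes are known for short lives and often carry AU-rich elements in the 3′ untranslated region. Replication-dependent histone messages end in a stem-loop instead of a poly(A) tail and are known to be degraded when DNA synthesis stops. Mitochondrial DNA is transcribed by a polymerase of its own into long precursors that are cut at the transfer RNAs.

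Estimated counts per library totalled 20302164 to 27393969 in ActD cells and 12235068 to 17535685 in control cells. Of 23593 genes tested, 5881 were called higher in ActD cells (24.9%) and 6722 lower (28.5%), at an adjusted p under 0.05 from edgeR's quasi-likelihood test with Benjamini-Hochberg adjustment, which gave every adjusted p below. The larger changes were mostly losses, since 916 genes were higher by 2-fold or more (3.88%) and 4007 lower by as much (17.0%). Every ActD library lay above every control library for 6537 genes (27.7%) and below for 7179 (30.4%). Of protein-coding genes alone, 35.4% were called higher and 30.0% lower, which is the background for lists of such genes below. No spike-in was used here, so a fold change is relative to the rest of the library and says nothing of RNA per cell. In bulk RNA, fewer cells with a transcript and less of it per cell cannot be told apart. The median log2 fold change of all genes was -0.060 with TMM scaling, 0.82 with libraries scaled to the 13 mitochondrial mRNAs and -0.69 with libraries scaled to the ribosomal protein mRNAs. The calls split accordingly into 11900 higher and 2061 lower with the mitochondrial scaling, and 760 higher and 12410 lower with the ribosomal protein scaling. HCT116 is an epithelial line, and EPCAM, KRT8 and KRT18 were at 186 CPM or more in all 6 libraries. Of the blood and endothelial markers, PTPRC, LYZ and PECAM1 were below 0.5 CPM. The marker lists were not all so clear. Per library, the 11 intestinal epithelium markers tested summed to 3348 to 4182 CPM and the 5 neural markers to 100 to 140 CPM. The 6 fibroblast markers summed to 44.6 to 54.1 CPM, the 5 blood markers to 4.73 to 7.88 CPM and the 3 endothelium markers to 0.583 to 0.844 CPM. Directions below are those of TMM scaling, which the other scalings shift for all genes together, and where the sign of a list's median or of a named gene's change turns under them, the value is given. Levels are CPM, estimated counts scaled to library size by TMM, and errors of log2 fold changes are standard errors (SE) of the fit.

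**Figure D1:**
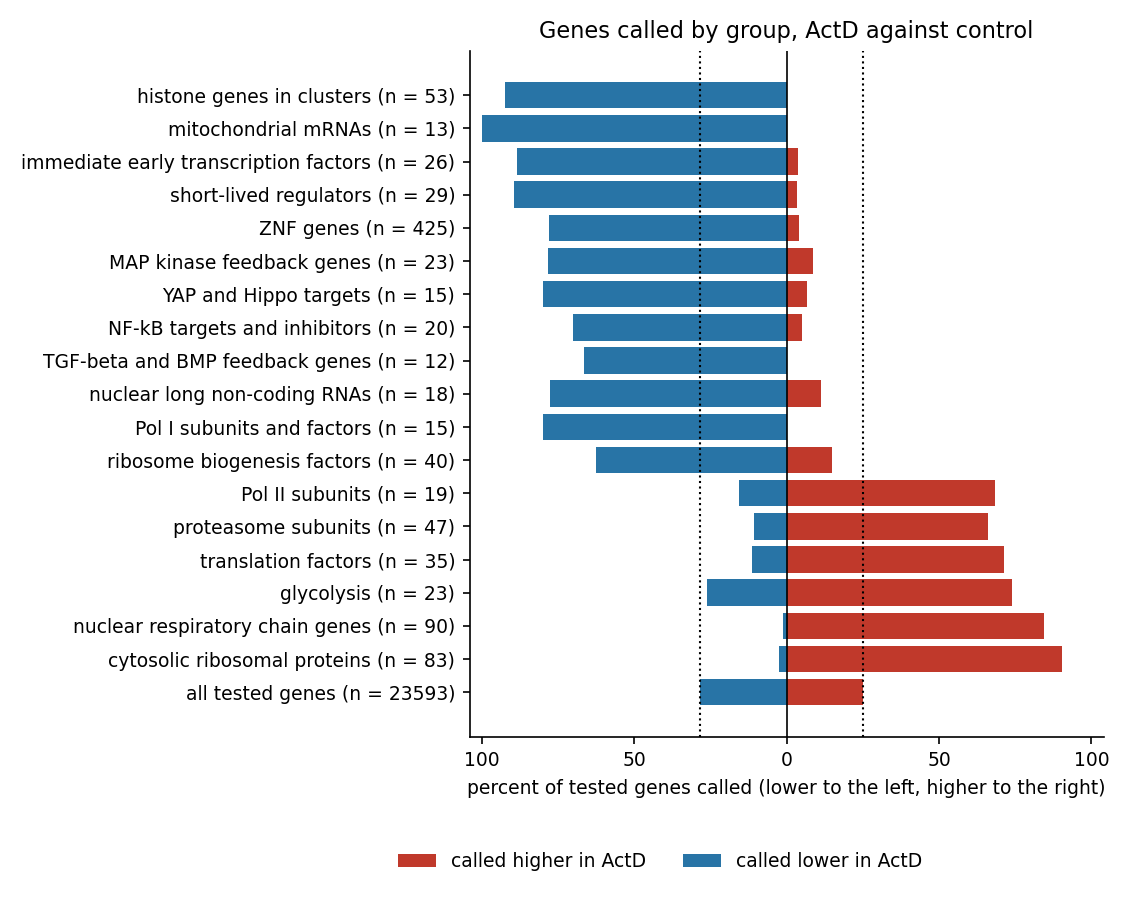
Percent of tested genes in each group called lower (bars to the left) or higher (bars to the right) in ActD against control cells, 3 libraries each, with the group's number of tested genes. Dotted lines mark all 23593 tested genes, 28.5% lower and 24.9% higher; the clustered histone genes and the mitochondrial mRNAs have no bar to the right, and the cytosolic ribosomal proteins have 75 of 83 genes to the right.

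The immediate early transcription factors, genes switched on within minutes of a growth signal, were depleted in ActD cells. Of 26 tested, 23 fell and 1 rose, with a median log2 fold change of -2.56 against -0.060 over all genes, and of -1.64 with the mitochondrial scaling. MYC, the growth-promoting transcription factor, stood at 10.4, 12.7 and 12.4 CPM in the 3 ActD libraries, against 660.4, 781 and 757 CPM in the 3 control libraries. Every ActD library was far below every control library (log2 fold change -5.94, SE 0.10, adjusted p = 1.46e-16). KLF10, an early TGF-beta response factor, stood at 8.55, 9.22 and 10.6 CPM in the 3 ActD libraries, against 114, 127 and 132 CPM in the 3 control libraries, again without overlap (log2 fold change -3.71, SE 0.074). CSRNP1, KLF2 and KLF4, the other members with the largest changes, fell by similar amounts (log2 fold changes -4.03, -3.93 and -3.74), and none of the 5 overlapped between groups. EGR2, named after its value was seen as the member that rose, stood at 2.90, 2.82 and 2.67 CPM in ActD cells, against 1.40, 1.44 and 1.57 CPM in control cells (log2 fold change 0.92, SE 0.22, adjusted p = 9.75e-04). That gene was scarce in both groups. EGR4 and NR4A3 had no call.

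Short-lived regulators, a list of transcription factors, cyclins, kinases and stress regulators, moved the same way, 26 of 29 lower and 1 higher, with a median of -2.30. TRIB1, a pseudokinase that steers proteins to the COP1 ubiquitin ligase, stood at 17.9, 17.7 and 18 CPM in the 3 ActD libraries, against 477, 507 and 522 CPM in the 3 control libraries (log2 fold change -4.81, SE 0.064, adjusted p = 1.77e-22). The 3 ActD values of TRIB1 were nearly identical. DDIT4, an inhibitor of mTORC1, stood at 1.13, 0.993 and 1.64 CPM in ActD cells, against 38.2, 35.9 and 36.3 CPM in control cells (log2 fold change -4.88, SE 0.16). PLK2, a stress-responsive kinase, HES1, a Notch target, and CITED2, a partner of CBP and p300, fell as far (log2 fold changes -4.02, -4.01 and -3.71). The groups did not overlap for any of these 5. ODC1, the rate-limiting enzyme of polyamine synthesis and the member that rose, stood at 535, 491 and 515 CPM in ActD cells, against 399, 438 and 416 CPM in control cells, and its direction turns to -0.34 with the ribosomal protein scaling. MCL1, the anti-apoptotic BCL2 relative with a short-lived protein, stood at 46.1, 46.8 and 46.1 CPM in the 3 ActD libraries, against 234, 223 and 227 CPM in the 3 control libraries (log2 fold change -2.30, SE 0.052, adjusted p = 7.14e-19). Among 19 BCL2 family members tested, 7 fell (36.8%) and 6 rose (31.6%), near the 30.0% and 35.4% of protein-coding genes. Their median was -0.05, or 0.90 with the mitochondrial scaling. BCL2L11 and BBC3, which encode the pro-apoptotic BIM and PUMA, fell with MCL1 (log2 fold changes -2.16 and -1.98).

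**Figure D2:**
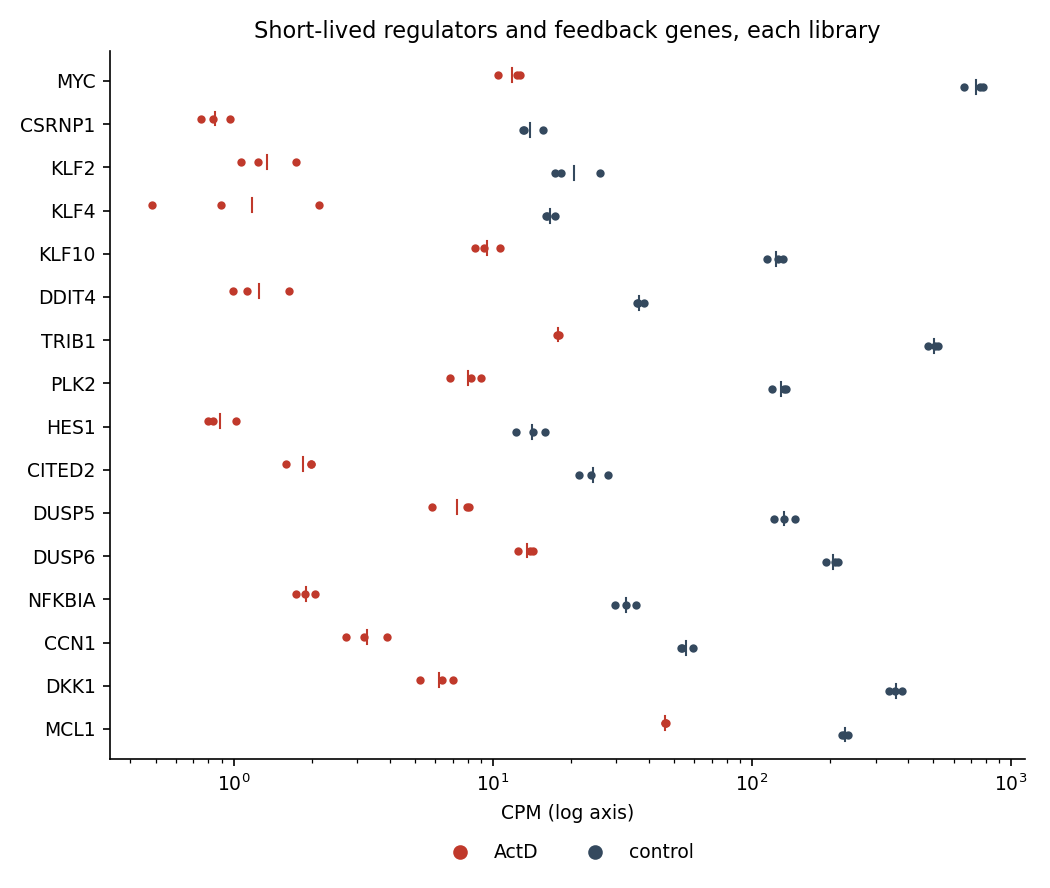
CPM on a log axis for 16 regulators and feedback genes in each of the 3 ActD libraries and the 3 control libraries; points are libraries and short vertical lines are group means. No gene shown has an ActD library at or above a control library, and MYC has 10.4 to 12.7 CPM in ActD cells against 660.4 to 781 CPM in control cells.

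Feedback genes of signalling pathways fell as well. Of 23 MAP kinase feedback genes, 18 fell and 2 rose (median -1.71). DUSP6, the phosphatase that switches off ERK, stood at 12.5, 14.3 and 14 CPM in the 3 ActD libraries, against 193, 209.8 and 215 CPM in the 3 control libraries (log2 fold change -3.92, SE 0.075, adjusted p = 6.08e-20), without overlap. Its relatives DUSP5, DUSP2 and DUSP1 and SPRY1, a Sprouty inhibitor of receptor signalling, fell too (log2 fold changes -4.18, -3.66, -3.60 and -3.06). The members that rose were the ETS factors ETV5, at 101, 101 and 98.1 CPM in ActD cells, against 35.4, 44.1 and 38.1 CPM in control cells (log2 fold change 1.35, SE 0.065), and ETV4 (log2 fold change 0.47, but -0.16 with the ribosomal protein scaling).

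Of 20 NF-kB targets and inhibitors, 14 fell and 1 rose. NFKBIA, which encodes the inhibitor IkB-alpha, stood at 1.88, 1.75 and 2.06 CPM in the 3 ActD libraries, against 29.6, 35.8 and 32.7 CPM in the 3 control libraries (log2 fold change -4.11, SE 0.12, adjusted p = 2.71e-17). TNFAIP3, the A20 ubiquitin-editing enzyme, the inhibitor NFKBIE, the subunit RELB and the chemokine CXCL1, which was below 2 CPM throughout, fell as well (log2 fold changes -3.38, -3.06, -2.65 and -3.54). None of these 5 overlapped between groups. TNFAIP2 rose by 0.50 on the log2 scale with TMM scaling and stood at -0.14 with the ribosomal protein scaling.

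Of 12 TGF-beta and BMP feedback genes, 8 fell and none rose. BMP4, a secreted ligand, stood at 18.7, 16.3 and 15.8 CPM in the 3 ActD libraries, against 149.8, 172 and 170.4 CPM in the 3 control libraries (log2 fold change -3.28, SE 0.073, adjusted p = 5.01e-19). The decoy receptor BAMBI, the SMAD corepressor TGIF1 and the inhibitory SMAD7 fell too (log2 fold changes -5.64, -3.20 and -2.92), all without overlap. Of 15 YAP and Hippo genes, 12 fell. CCN1, a matricellular YAP target, stood at 3.17, 3.89 and 2.72 CPM in the 3 ActD libraries, against 53.4, 53.8 and 59.2 CPM in the 3 control libraries (log2 fold change -4.07, SE 0.11, adjusted p = 1.10e-17). Of the other targets, NUAK2, AMOTL2, CCN2 and F3 had the largest changes (log2 fold changes -4.04, -3.17, -2.66 and -2.46). YAP1 itself was higher, at 256, 262 and 256 CPM in ActD cells, against 230.4, 229 and 223 CPM in control cells (log2 fold change 0.18), but lower with the ribosomal protein scaling (-0.46).

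Wnt targets divided, 5 lower and 5 higher of 12 (median 0.077, or -0.40 with the ribosomal protein scaling). DKK1, a secreted Wnt antagonist, had the largest loss of that list, at 6.35, 7.03 and 5.25 CPM in the 3 ActD libraries, against 339, 379.8 and 358 CPM in the 3 control libraries (log2 fold change -5.85, SE 0.079, adjusted p = 1.77e-22). The groups did not overlap. AXIN2 and ZNRF3, negative regulators of the pathway, fell (log2 fold changes -3.06 and -1.88), while NOTUM and TNFRSF19 rose by 1.41 and 1.59 on the log2 scale.

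An AU-rich nonamer was searched in annotated 3′ untranslated regions of the 4 lists of immediate early, short-lived, MAP kinase and NF-kB genes. Sites are shown for genes picked because they had a match and were among the strongest losses of those lists. The letters searched were TATTTATTT and TATTTATTA on the transcript strand, overlapping matches counted, and capitals mark the match. Positions are GRCh38, from the GENCODE transcripts.
NFKBIA (chr14:35401522-35401544, minus strand): tgatgtaTATTTATTAaacagat
PLK2 (chr5:58454068-58454090, minus strand): aacttttTATTTATTAcagccca
DUSP1 (chr5:172768645-172768667, minus strand): tggtcctTATTTATTTaacttca
CSRNP1 (chr3:39142887-39142909, minus strand): ctggattTATTTATTTgttttaa

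The nonamer was present in 34 of 97 members of those lists with a region to search (35.1%), and in 1930 of 14591 tested protein-coding genes (13.2%). Not all list members with a match had a loss, since some stood at log2 fold changes of 0.025, 0.086 and 0.12 with TMM scaling. Nor did every strong loss come with a match. None was found for DDIT4, DUSP5, HES1, KLF2 and DUSP6, each of which fell further than DUSP1. Over the 14591 genes the medians differed little with the nonamer. The 12661 genes without it had a median log2 fold change of 0.088. The median was -0.016 for the 1440 genes with 1 copy and -0.023 for the 490 with 2 or more. The calls differed more. In the same order, 29.04%, 36.67% and 35.92% of genes were called lower, and 36.47%, 32.92% and 28.78% higher. Median length of the region was 877, 2598 and 3611.5 bases in that order. Whether length accounts for the difference in calls was not tested. By copies of the shorter pentamer ATTTA the medians were 0.20 for 4640 genes with none, 0.042 for 4054 with 1 or 2, -0.021 for 2510 with 3 to 5, 0 for 1868 with 6 to 10 and 0.064 for 1519 with more than 10, so they did not fall steadily. In the same order of pentamer copies, 24.0%, 30.7%, 35.9%, 34.5% and 31.3% of genes were called lower. Median length of the region differed as well, at 347 bases in the genes with no pentamer and 4680 bases in those with more than 10. A match of letters does not show a working site.

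The clustered, replication-dependent histone genes had the deepest losses of all groups. Of 53 tested, 49 fell and none rose, with a median log2 fold change of -5.90, and every scaling kept that direction (medians -4.99 and -6.52 at the extremes). They made up 0.0125% ± 0.00112 of counts in ActD libraries and 0.692% ± 0.0409 in control libraries (SD, n = 3 each). The exact permutation test on that share gave p = 0.1, the smallest that 3 against 3 libraries allow. All 12 of the lowest protein-coding genes by the naming rule were members. H2AC11 stood at 1.94, 1.15 and 1.36 CPM in the 3 ActD libraries, against 225, 274 and 254 CPM in the 3 control libraries (log2 fold change -7.43, SE 0.11, adjusted p = 2.24e-20). H2BC18 stood at 2.69, 3.77 and 3.28 CPM in the 3 ActD libraries, against 446, 549 and 512 CPM in the 3 control libraries (log2 fold change -7.25, SE 0.11, adjusted p = 2.37e-18). H3C12 stood at 0.968, 0.715 and 0.891 CPM in the 3 ActD libraries, against 154, 191 and 171 CPM in the 3 control libraries (log2 fold change -7.66, SE 0.12).

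Histone genes encode the core proteins of nucleosomes in many near-identical copies, and estimated counts divide shared reads between them, so values of single copies are less certain than the sum. H4C12 showed this, with 0, 2.90 and 0 CPM in the 3 ActD libraries, against 323, 327 and 319.6 CPM in the 3 control libraries, and so did H3C15, with 2.58, 0 and 4.17 CPM in the 3 ActD libraries, against 345, 308 and 259.6 CPM in the 3 control libraries. H2AC7 had no counts in ActD cells, against 103, 159 and 149 CPM in control cells, at least 3038-fold lower if 3 counts are assumed for the ActD libraries together. The smallest loss among members above 100 CPM in control cells was that of H4C3, with 39.9, 32 and 44.1 CPM in the 3 ActD libraries, against 116, 133 and 128 CPM in the 3 control libraries (log2 fold change -1.71, SE 0.10), named after its value was seen. The 4 members without a call were below 0.2 CPM in every library of both groups.

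The stem-loop at the end of these messages was looked for by its letters in annotated 3′ untranslated regions, on the transcript strand, as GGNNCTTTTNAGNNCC, and sites of 3 histone genes among the lowest are given with that of H2AX, a variant made from both kinds of message, and of TIPARP, a gene outside the family. Capitals mark the match and positions are GRCh38.
H2AC11 (chr6:27133509-27133536, plus strand): accaacGGCTCTTTTCAGGGCCacccac
H2BC18 (chr1:149811879-149811906, minus strand): cccaaaGGCTCTTTTCAGAGCCacttca
H4C2 (chr6:26026895-26026922, minus strand): tccaatGGCCCTTTTCAGGGCCgcccac
H2AX (chr11:119094892-119094919, minus strand): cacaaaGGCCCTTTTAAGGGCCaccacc
TIPARP (chr3:156705230-156705257, plus strand): taatagGGCACTTTTCAGACCCattttt

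These letters were present in 32 of 14591 searched regions of tested genes (0.219%). Of those 32 genes, 22 were clustered histone genes, of which 21 fell (median -5.72). Of the 10 others, 5 were lower, 2 higher and 3 without a call. Those higher were CDK2 and CAPZA1, which stood at -0.042 and -0.011 with the ribosomal protein scaling. Among those without a call, ENSG00000282988 has no symbol, and its site (chr6:26196783-26196810) lies near that of H2BC7 (chr6:26199962-26199989). The list of clustered histone genes was drawn by symbol, so this gene may belong with them and not with the others. H2AX stood at 91.2, 105 and 132 CPM in the 3 ActD libraries, against 188, 163 and 143 CPM in the 3 control libraries (log2 fold change -0.59, SE 0.15, adjusted p = 0.00900), a direction that turns to 0.29 with the mitochondrial scaling. TIPARP, an ADP-ribosyltransferase induced by the aryl hydrocarbon receptor, stood at 10.4, 13.3 and 11.2 CPM in the 3 ActD libraries, against 100.4, 102 and 108 CPM in the 3 control libraries (log2 fold change -3.14, SE 0.08). A further 7 clustered histone genes had a region without these letters, and all 7 fell too (median -5.69), so within the family the match did not separate the losses. For 24 members no such region was annotated.

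Histone genes outside the clusters mostly went the other way with TMM scaling. Most of their messages are polyadenylated, H2AX having both kinds, and many of their proteins replace the canonical ones outside S phase. This list of 11 was drawn up after values had been seen. Of its 10 members tested, 8 rose and 2 fell (median 0.54, or -0.10 with the ribosomal protein scaling). H1-10, a linker histone, stood at 47.9, 54.7 and 64.1 CPM in the 3 ActD libraries, against 27.7, 27.3 and 25.6 CPM in the 3 control libraries (log2 fold change 1.05, SE 0.14, adjusted p = 3.28e-05). On the log2 scale H2AZ2 rose by 0.88 and H3-3A, which encodes H3.3, by 0.85. H2AZ1 rose by 0.62, but was at -0.019 with the ribosomal protein scaling. Besides H2AX, CENPA, the centromeric H3, was lower (log2 fold change -0.30, but 0.60 with the mitochondrial scaling), a call lost without ActD replicate 1 or 2 or control replicate 1 or 2 (-0.27 to -0.23). The gene of SLBP, the protein that binds the stem-loop, stood at 74.7, 58.4 and 70.8 CPM in ActD cells, against 124, 118 and 124 CPM in control cells (log2 fold change -0.85, SE 0.078), and at 0.061 with the mitochondrial scaling.

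**Figure D3:**
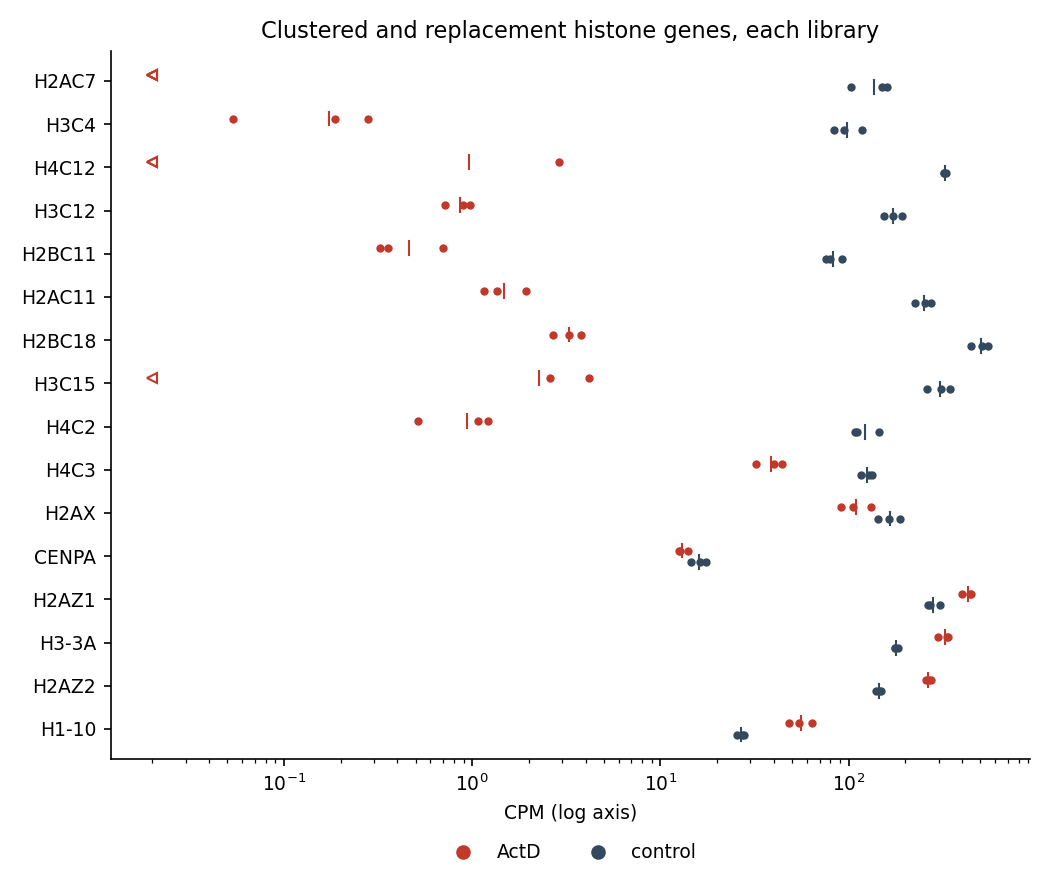
CPM on a log axis for 10 clustered histone genes (H2AC7 to H4C3) and 6 histone variants (H2AX to H1-10) in each of the 3 ActD and the 3 control libraries; points are libraries, short vertical lines are group means and open triangles at the left edge mark libraries with no counts. The clustered genes lie far lower in ActD cells, while H1-10 has 47.9 to 64.1 CPM in ActD cells against 25.6 to 27.7 CPM in control cells.

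Mitochondrial transcripts fell unevenly along their genome. Mitochondrial genes gave 3.53, 3.65 and 3.51% of counts in ActD libraries, against 6.14, 7.50 and 8.27% in control libraries, without overlap (exact permutation p = 0.1). With TMM scaling all 13 mRNAs fell, with a median log2 fold change of -1.63. MT-ND2 and MT-ND1, subunits of complex I whose genes follow the ribosomal RNAs, fell most. MT-ND2 stood at 378, 421 and 388 CPM in the 3 ActD libraries, against 4969, 7165 and 7648 CPM in the 3 control libraries (log2 fold change -4.06, SE 0.18, adjusted p = 3.48e-08). MT-ND1 stood at 286, 306 and 286 CPM in the 3 ActD libraries, against 3361, 4839 and 5232 CPM in the 3 control libraries (log2 fold change -3.94, SE 0.18, adjusted p = 5.36e-08). Further along the same strand, MT-CO1, a core subunit of complex IV, stood at 12148, 12359 and 12280.3 CPM in the 3 ActD libraries, against 12044, 14484 and 15329 CPM in the 3 control libraries, with overlapping groups (log2 fold change -0.19, SE 0.069, adjusted p = 0.0285), a call lost with upper-quartile scaling or DESeq2 size factors, and without any 1 of the libraries other than control replicate 1 (log2 fold changes -0.18 to -0.10). The losses of MT-CO3, MT-ATP6, MT-ND4 and MT-CO2 lay between (log2 fold changes -0.42, -0.76, -0.81 and -0.85), and MT-CO3 lost its call without control replicate 2 (-0.37, adjusted p = 0.0560).

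The remaining complex I subunits had log2 fold changes of -1.11 for MT-ND4L, -1.74 for MT-ND6 on the other strand, -2.20 for MT-ND3 and -2.26 for MT-ND5. MT-ATP8 of the ATP synthase was at -1.63 and MT-CYB of complex III at -1.64. Scaled to the sum of these mRNAs, MT-CO1 (0.74), MT-CO3 (0.52), MT-ATP6 (0.19), MT-ND4 (0.14) and MT-CO2 (0.098) turned positive while MT-ND1 and MT-ND2 were still lower (-2.99 and -3.11 on the log2 scale). A scaling of libraries moves all members alike and leaves the differences between them as they are. The 2 mitochondrial ribosomal RNAs had no call (log2 fold changes 0.64 for MT-RNR1 and 0.42 for MT-RNR2, the second at -0.21 with the ribosomal protein scaling), and the libraries were depleted of ribosomal RNA. Of 17 tested transfer RNAs, 15 fell and none rose, although such short RNAs are poorly caught by these libraries. MT-TL1, the leucine transfer RNA between MT-RNR2 and MT-ND1, had no counts in ActD cells, against 2.65, 1.67 and 2.74 CPM in control cells, at least 50.6-fold lower on the same assumption. MT-TI, the isoleucine transfer RNA that follows MT-ND1, had 3 counts in ActD cells and 696 in control cells, a ratio of 0.00309 with an exact 95% counting interval of 6.36e-04 to 0.00908. A nuclear copy of MT-ND2, the pseudogene MTND2P28 on chromosome 1, stood at 10.9, 12.9 and 13.7 CPM in ActD cells, against 160.2, 171 and 191 CPM in control cells, and its reads cannot be told from those of MT-ND2.

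**Figure D4:**
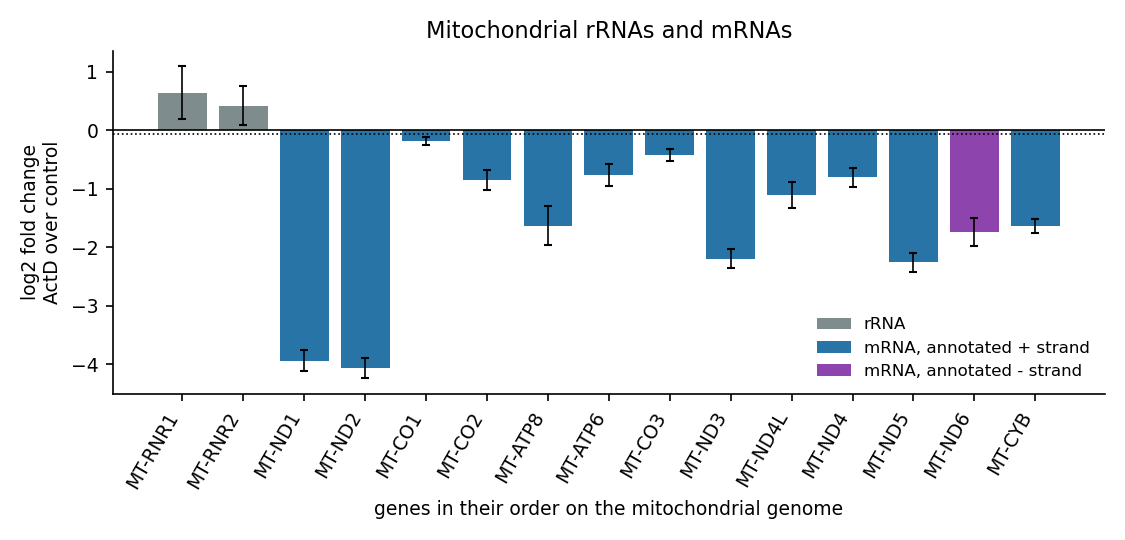
Log2 fold change, ActD over control, of the mitochondrial ribosomal RNAs and mRNAs in their order on the mitochondrial genome; bars are fitted values, error bars are SE and the dotted line is the median of all tested genes. MT-ND1 and MT-ND2 reach -3.94 and -4.06, and MT-CO1 beside them -0.19.

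Genes of the protein synthesis machinery and of energy metabolism took a larger share of the ActD libraries. Of 83 cytosolic ribosomal protein genes tested, 75 rose and 2 fell with TMM scaling, with a median of 0.62, and -0.025 by construction when libraries were scaled to them. They made up 5.40, 5.01 and 5.44% of counts in ActD libraries, against 3.56, 3.79 and 3.67% in control libraries, without overlap (exact permutation p = 0.1). RPS19, a small-subunit protein, stood at 627, 606 and 652 CPM in the 3 ActD libraries, against 304, 352 and 319.8 CPM in the 3 control libraries (log2 fold change 0.95, SE 0.056, adjusted p = 4.11e-12). RPLP0, of the ribosomal stalk, stood at 2773, 2659.6 and 2795 CPM in ActD cells, against 1414, 1588 and 1464 CPM in control cells (log2 fold change 0.88, SE 0.051), and RPL39, RPS12 and RPS21 rose by 0.94, 0.92 and 0.87 on the log2 scale. The 2 members that fell were RPL36A (log2 fold change -0.55) and the divergent paralog RPL7L1 (-0.19), and both turned positive with the mitochondrial scaling (0.38 and 0.72). Many ribosomal protein genes have processed pseudogenes that can share their reads.

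Nuclear genes of the respiratory chain rose in 76 of 90 cases and fell in 1 (median 0.66, or 0.016 with the ribosomal protein scaling), while the mitochondrial genes of the same complexes fell. NDUFA2 of complex I stood at 37.1, 34.7 and 38.4 CPM in the 3 ActD libraries, against 15.4, 19.8 and 13.2 CPM in the 3 control libraries (log2 fold change 1.18, SE 0.11, adjusted p = 1.03e-08). COX8A of complex IV stood at 196, 179.8 and 187 CPM in ActD cells, against 88.3, 95.3 and 89.4 CPM in control cells (log2 fold change 1.04, SE 0.056), and NDUFB6, UQCRC1 and NDUFA4 rose by 1.00, 0.95 and 0.95 on the log2 scale. The member that fell was NDUFV3 (-0.87, but 0.055 with the mitochondrial scaling). Of 23 glycolysis genes, 17 rose and 6 fell (median 0.60, or -0.041 with the ribosomal protein scaling). PFKM and GAPDH rose by 0.82 and 0.79, on the log2 scale, whereas the regulator PFKFB4 and the hexokinase HK2 fell (log2 fold changes -1.20 and -1.04). The glucose transporter SLC2A1 was at -0.83, and at 0.064 with the mitochondrial scaling. Translation factors (25 higher and 4 lower of 35) and proteasome subunits (31 higher and 5 lower of 47) had medians of 0.36 and 0.32, which became -0.29 and -0.31 with the ribosomal protein scaling.

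Zinc finger genes named ZNF, most of which encode DNA-binding transcription factors, fell as a large group. Of 425 tested, 332 fell and 17 rose, with a median of -1.16 (-0.26 with the mitochondrial scaling), and their share of counts was 0.534, 0.562 and 0.527% of counts in ActD libraries, against 1.09, 1.01 and 1.06% in control libraries. ZNF296 stood at 0.592, 0.596 and 0.938 CPM in the 3 ActD libraries, against 15.2, 17.5 and 13.7 CPM in the 3 control libraries (log2 fold change -4.44, SE 0.19, adjusted p = 2.80e-14). ZNF503 stood at 2.42, 2.22 and 3.00 CPM in ActD cells, against 58, 50.2 and 38.3 CPM in control cells (log2 fold change -4.26, SE 0.19), and ZNF57 fell by 4.01 on the log2 scale. ZNF662, lower, and the pseudogene ZNF603P, higher, were also among the largest changes, but were below 0.5 CPM in every library of both groups. ZNF662 lost its call without any 1 of the ActD libraries or control replicate 1, and ZNF603P without control replicate 3.

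Genes with few exons fell more often. In GENCODE 29 the 449 tested protein-coding genes whose chosen transcript has 1 exon had a median log2 fold change of -0.98, with 51.9% lower and 6.46% higher. The 760 genes with 2 exons had -0.80 and the 924 with 3 exons -0.39. From 6 exons upward the medians were 0.14 to 0.16, with 24.0% to 27.5% lower and 39.0% to 41.7% higher. The bins were chosen after values had been seen. Without the clustered histone, ZNF, immediate early and short-lived lists, the 393 remaining genes with 1 exon still had a median of -0.76 and the 721 with 2 exons -0.71. With the genes cut into 5 equal bins by exon number, the highest bin lay 0.58 above the lowest in median log2 fold change. The same difference was 0.367 for average level, 0.16 for GC content, 0.075 for gene span and -0.063 for exon length, so exon number separated the genes by more than length did, in these bins. Without ActD replicate 3 the difference by exon length was -0.032, and without control replicate 3 that by gene span was 0.114.

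**Figure D5:**
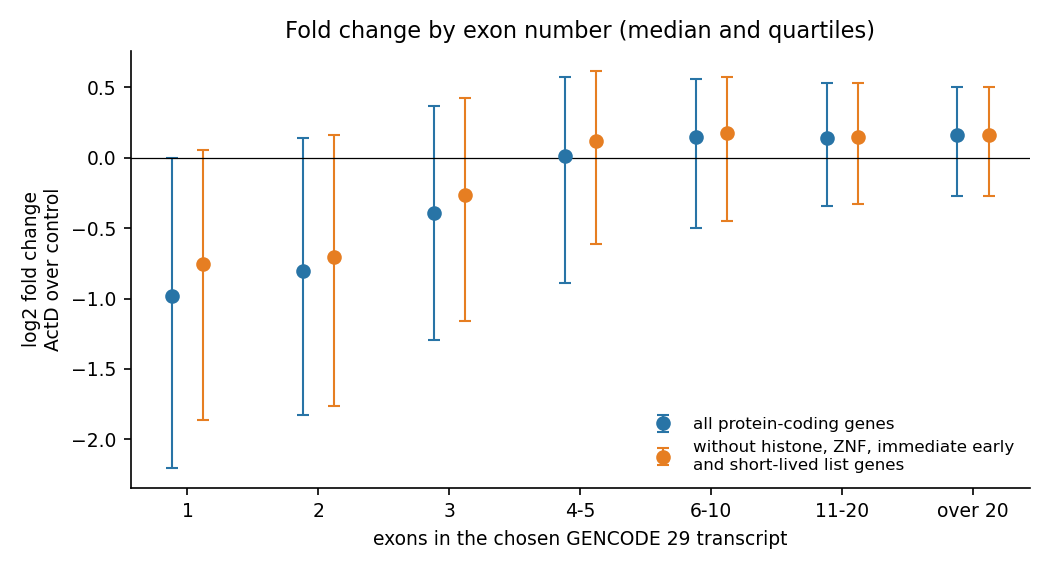
Median log2 fold change, ActD over control, of tested protein-coding genes by exon number of the chosen GENCODE 29 transcript, for all such genes and without the histone, ZNF, immediate early and short-lived lists; bars span the quartiles over genes. The median is -0.98 for 1 exon and 0.16 above 20 exons.

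The polymerases' own genes were checked because the series depletes their largest subunits. POLR1A, the largest subunit of RNA polymerase I, stood at 192, 202 and 176 CPM in the 3 ActD libraries, against 233, 248 and 229 CPM in the 3 control libraries (log2 fold change -0.32, SE 0.056, adjusted p = 5.07e-05), and at 0.59 with the mitochondrial scaling. POLR2A, the largest subunit of RNA polymerase II, stood at 575, 619 and 557 CPM in the 3 ActD libraries, against 467, 559 and 513 CPM in the 3 control libraries, with overlapping groups (log2 fold change 0.19, SE 0.059, adjusted p = 0.0106), a call lost when libraries were scaled to their totals alone or without ActD replicate 2 (0.15), and at -0.45 with the ribosomal protein scaling. Of 15 genes of the Pol I machinery, 12 fell and none rose (median -0.56, or 0.37 with the mitochondrial scaling). POLR1B, the second-largest subunit, stood at 65.5, 64.7 and 66 CPM in the 3 ActD libraries, against 176, 204 and 193 CPM in the 3 control libraries (log2 fold change -1.55, SE 0.065, adjusted p = 1.62e-14). The groups did not overlap. The subunit POLR1G, POLR1C, which is shared with Pol III, and TAF1D, of the promoter selectivity factor, fell too (log2 fold changes -1.64, -1.52 and -1.15). Of 40 ribosome biogenesis factors, 25 fell and 6 rose (median -0.36, or 0.57 with the mitochondrial scaling). RRS1, an assembly factor of the large subunit, stood at 10.6, 10.4 and 10.4 CPM in ActD cells, against 45.4, 62.7 and 56.5 CPM in control cells (log2 fold change -2.40, SE 0.13), and NOP16, WDR43, NOP2 and BYSL followed (log2 fold changes -2.30, -1.79, -1.73 and -1.63).

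Genes of the Pol II machinery went the other way with TMM scaling, 13 higher and 3 lower of 19 (median 0.39, or -0.25 with the ribosomal protein scaling). The 3 that fell were general factors, the TATA-binding protein TBP, at 8.18, 8.26 and 8.86 CPM in the 3 ActD libraries, against 20.4, 22.7 and 25.9 CPM in the 3 control libraries (log2 fold change -1.45, SE 0.11, adjusted p = 1.65e-10), and GTF2E1 (-1.32) and GTF2B (-0.80), of which GTF2B turns to 0.13 with the mitochondrial scaling. The small subunit POLR2L rose by 0.82 on the log2 scale. Of 27 Pol III genes, 15 fell and 7 rose (median -0.34, or 0.58 with the mitochondrial scaling). BRF2, the initiation factor of type 3 promoters, had the largest loss and stood at 1.56, 1.11 and 0.938 CPM in ActD cells, against 11.4, 12.3 and 10 CPM in control cells (log2 fold change -3.23, SE 0.18). Genes of P-TEFb, 7SK and elongation were 16 lower and 8 higher of 31 (median -0.25, or 0.66 with the mitochondrial scaling). MEPCE, the 7SK capping enzyme, ELL and BRD2 fell (log2 fold changes -2.19, -2.08 and -1.47), and MLLT3 rose by 1.57 on the log2 scale.

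CDKN1A, the cell cycle inhibitor p21, stood at 108, 100 and 113 CPM in the 3 ActD libraries, against 74.5, 86.4 and 76.9 CPM in the 3 control libraries (log2 fold change 0.43, SE 0.058, adjusted p = 1.68e-06), but at -0.21 with the ribosomal protein scaling. MDM2, a ubiquitin ligase, stood at 181, 177 and 185 CPM in the 3 ActD libraries, against 205, 203 and 218 CPM in the 3 control libraries (log2 fold change -0.21, SE 0.051, adjusted p = 0.00181), but at 0.71 with the mitochondrial scaling. For neither gene did the groups overlap. The genes of this paragraph were named after their values had been seen. CCNG1, which encodes cyclin G1, stood at 178, 171 and 177 CPM in the 3 ActD libraries, against 79, 81.3 and 77.6 CPM in the 3 control libraries (log2 fold change 1.15, SE 0.049, adjusted p = 2.19e-14). SESN2, AEN, BBC3 and BTG2 fell without overlap (log2 fold changes -2.70, -2.28, -1.98 and -1.97).

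The 12 highest protein-coding genes by the naming rule, which asks for an average log2 CPM of at least 3 and groups that do not overlap, had log2 fold changes of 1.46 to 2.08. Fitted gains reached 8.97 among all tested genes, in a gene with no counts in control cells, where the fitted value is no measure of size. SESN3, a sestrin that restrains mTORC1, stood at 23.9, 24.5 and 24.5 CPM in the 3 ActD libraries, against 4.91, 6.34 and 5.89 CPM in the 3 control libraries (log2 fold change 2.08, SE 0.13, adjusted p = 1.10e-11). NGFR, the p75 neurotrophin receptor, stood at 20.9, 22 and 23.6 CPM in the 3 ActD libraries, against 5.76, 6.28 and 6.00 CPM in the 3 control libraries (log2 fold change 1.88, SE 0.12, adjusted p = 1.38e-11). ADD3, the cytoskeletal protein gamma-adducin, stood at 93.6, 92.9 and 93.4 CPM in the 3 ActD libraries, against 31.2, 30.1 and 32.3 CPM in the 3 control libraries (log2 fold change 1.58, SE 0.06, adjusted p = 2.72e-15). DHRS3, TJP3, GNG7, NOTCH3, PAIP2B, ETV1, SRCIN1 and DNASE2 rose by 1.46 to 1.60 on the log2 scale, all without overlap. The remaining one of the 12 highest, ENSG00000280071 on chromosome 21, which GENCODE 29 names GATD3B and which has a near-identical copy, had 0 CPM in 1 control library and an SE of 0.74, and its call was lost without any 1 of the 3 ActD libraries or without control replicate 1 (log2 fold changes 1.83 to 2.21).

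Among lncRNA genes, 28.4% were lower, near the 28.5% of all genes, and 4.64% were higher, against 24.9% of all genes. Of 4118 tested, 1169 fell, 191 rose and 2758 had no call (median -0.50). Of 14945 protein-coding genes, 4483 were lower and 5294 higher (median 0.064). The medians became 0.36 and 0.98 with the mitochondrial scaling, and -1.13 and -0.55 with the ribosomal protein scaling. Calls also varied with level. Protein-coding genes were cut into 5 equal bins by average level, and 7.29% of the lowest bin were higher and 15.7% lower. The other bins had 26.8% to 62.8% higher and 21.8% to 40.7% lower. Whether level accounts for the contrast between lncRNA genes and all genes was not tested. MIR17HG, the host of the miR-17 cluster, stood at 1.94, 2.11 and 2.86 CPM in the 3 ActD libraries, against 30.2, 28.8 and 31.3 CPM in the 3 control libraries (log2 fold change -3.70, SE 0.14, adjusted p = 1.75e-15). MIR663AHG stood at 13, 24.5 and 27.1 CPM in ActD cells, against 1128, 839.9 and 702 CPM in control cells, MIR222HG and MIR22HG fell (log2 fold changes -2.80 and -3.74), and in all 24 of 37 microRNA host genes fell and 1 rose. Of 18 lncRNAs on a list named nuclear, 14 fell and 2 rose. CYTOR, GAS5 and EPB41L4A-AS1 were among its largest losses (log2 fold changes -1.79, -1.50 and -1.42). Where these RNAs lie in the cell was not measured, and the list's name need not hold for each. MALAT1, the abundant lncRNA of nuclear speckles, stood at 11063, 11746 and 11170.1 CPM in the 3 ActD libraries, against 8982, 8299 and 10239 CPM in the 3 control libraries (log2 fold change 0.30, SE 0.068, adjusted p = 7.20e-04), but at -0.34 with the ribosomal protein scaling. NEAT1, the scaffold of paraspeckles, stood at 208, 266 and 217 CPM in ActD cells, against 198, 136 and 182 CPM in control cells and had no call (adjusted p = 0.0864).

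Hosts of small nucleolar RNAs, which contain those RNAs in their introns, fell in 16 of 30 cases and rose in 5 (median -0.45, or 0.46 with the mitochondrial scaling). SNHG14, SNHG26, SNHG15 and SNHG12 fell most (log2 fold changes -2.46, -2.39, -2.38 and -2.23). Of 70 small nucleolar and Cajal body RNAs tested, 10 rose and 8 fell (median 0.26, or -0.35 with the ribosomal protein scaling). SCARNA12 stood at 30.8, 30.6 and 35.2 CPM in ActD cells, against 6.70, 8.61 and 9.62 CPM in control cells (log2 fold change 1.94, SE 0.27). SNORD3D, a copy of U3, stood at 123, 106 and 199 CPM in ActD cells, against 27.8, 0 and 0 CPM in control cells, and near-identical copies make that value uncertain. Of 9 RNAs made by Pol III, 4 rose and 2 fell (median 0.34, or -0.30 with the ribosomal protein scaling). RN7SL1, the RNA of the signal recognition particle, stood at 25448, 20679 and 27062 CPM in the 3 ActD libraries, against 10739.8, 11436 and 9838 CPM in the 3 control libraries (log2 fold change 1.19, SE 0.18, adjusted p = 4.62e-04). RN7SL1 and its copy RN7SL2 together gave 4.53% ± 0.430 of counts in ActD libraries and 2.69% ± 0.217 in control libraries (SD, n = 3 each; exact permutation p = 0.1). RN7SK rose by 0.34 on the log2 scale with TMM scaling and stood at -0.30 with the ribosomal protein scaling, and BCYRN1 and RNU6ATAC fell (log2 fold changes -2.07 and -3.35). The processed pseudogenes RPL10P9, RPS2P46 and PRELID1P6 were among the highest non-coding genes, and OR51K1P among the lowest; their reads can belong to parent genes.

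Differences from loss of POLR2A were tested directly between the treated groups, without the controls. In ActD against POLR2A-depleted cells, 7339 genes were higher (31.1%) and 9389 lower (39.8%). All 13 mitochondrial mRNAs were lower in ActD cells, with MT-ND2 the farthest (log2 fold change -4.24, SE 0.18, adjusted p = 2.10e-08). The clustered histone genes were lower in 52 of 53 cases and higher in none (median -4.81). Immediate early factors and short-lived regulators had medians of -2.34 and -1.75, and MYC was lower (log2 fold change -2.77, SE 0.1, adjusted p = 9.73e-13). Of 4118 lncRNA genes, 2442 were lower and 217 higher (median -1.39), and 4044 had a count in any ActD or control library. The low-count filter took all 12 libraries, so genes counted mainly in POLR2A-depleted cells could enter the test. POLR2A-depleted libraries had 37371 to 39193 genes with a count, against 30099 to 31815 in ActD libraries. Such genes can hardly be called higher in ActD cells, so the splits of lncRNA genes and of all genes here are partly set by the filter. Ribosome biogenesis factors stood the other way, 31 higher and 5 lower of 40 (median 0.41). The ribosome biogenesis median turned to -0.23 with the ribosomal protein scaling, while the medians of the other lists in this comparison kept their sign under both.

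In ActD against POLR1A-depleted cells, 5756 genes were higher (24.4%) and 7501 lower (31.8%). CDKN1A was lower in ActD cells (log2 fold change -2.96, SE 0.059, adjusted p = 5.36e-20). Immediate early factors were lower in 26 of 26 cases, the clustered histone genes in 52 of 53 and the mitochondrial mRNAs in 8 of 13, while ribosomal protein genes were higher in 81 of 83. The median of the ribosomal protein genes was 0.94 here, and -0.022 with the ribosomal protein scaling. The medians of the 3 other lists were negative under every one of these scalings. With the mitochondrial scaling the calls against POLR2A-depleted cells split into 12914 higher and 4335 lower, and those against POLR1A-depleted cells into 9256 higher and 3495 lower. With the ribosomal protein scaling they split into 1755 higher and 14666 lower, and 666 higher and 16044 lower.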

How the data were processed

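Total RNA depleted of ribosomal RNA was sequenced with a stranded kit in 12 libraries, 3 in each of 4 groups, and 6 of them, ActD and control, make up the main comparison. The authors deposited a table of estimated counts for 63241 genes, of which 23.9% of values are not whole, per the values. Tools listed in the submitters' processing notes, without roles, include RSEM 1.3.3, STAR, Trim Galore 0.6.10 and HTSeq 2.0.2, on GRCh38. Strand setting and annotation release were not given in the sources used here, so overlapping and antisense genes stay uncertain.

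Estimated counts were rounded and fitted with edgeR 4.0.16 in R 4.3.3 (TMM scaling, filterByExpr, robust quasi-likelihood, all 12 libraries, 8 residual degrees of freedom), which kept 23593 genes, with Benjamini-Hochberg adjustment over all of them at 0.05. No batch beyond the replicate number is given. The fit was tested on simulated data in which few genes changed, in random directions. Such data cannot check the choice of scaling, on which the calls here depend. Alternatives were DESeq2 1.42.0, other scalings and filters, a replicate block and leaving out single libraries. Symbols matched 42338 of the IDs, and gene classes, exons and untranslated regions came from GENCODE 29 (GRCh38), which holds 58228.

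Members and lists were chosen with earlier results of these data known. Named genes were POLR1A and POLR2A, the 12 protein-coding and 6 non-coding genes called farthest in each direction (groups not overlapping, log2 CPM averaging at least 3), up to 5 called members of each list with the largest change, and all members of lists with at most 15; others were named after their values were seen. Some genes are not reported here. Counting intervals and the 3-count floor cover counting error only.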

Additional observations from a re-analysis of the deposited data

How the results depend on the processing

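Scaling decided the split of calls. Of the 5881 higher and 6722 lower genes in ActD against control cells, scaling to the mitochondrial mRNAs gave 11900 and 2061, and scaling to the ribosomal protein mRNAs 760 and 12410. Against POLR2A-depleted cells these gave 12914 and 4335, and 1755 and 14666. Against POLR1A-depleted cells they gave 9256 and 3495, and 666 and 16044. Genes higher by 2-fold or more (916) became 8714 and 116 with these 2 scalings, 609 with library totals, 1536 with the upper quartile, 1444 with no filter and 466 with a stricter filter; those lower (4007) became 1417, 7609 and, with the stricter filter, 2471. The median of all genes (-0.060) was 0.82 and -0.69 with the 2 scalings, -0.18 with totals, 0.050 with the upper quartile, -0.019 with size factors, -0.020 with DESeq2, 0 with no filter and 0.0025 with the stricter one. DESeq2 called 5976 higher and 6179 lower.

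With the mitochondrial scaling these log2 fold changes turned positive: POLR1A 0.59, KRT18 0.39, CENPA 0.60, SLC2A1 0.064, NR4A3 0.41, EGR4 0.012, MDM2 0.71, GTF2B 0.13, RPL7L1 0.72, NDUFV3 0.055, SLBP 0.061, KRT19 0.14, H2AX 0.29, MT-CO2 0.098, MT-CO1 0.74, MT-ND4 0.14, MT-ATP6 0.19, MT-CO3 0.52 and RPL36A 0.38. With the ribosomal protein scaling these turned negative: CDH1 -0.17, ODC1 -0.34, CAPZA1 -0.011, EPCAM -0.15, CDK2 -0.042, CDKN1A -0.21, YAP1 -0.46, H2AZ1 -0.019, KRT8 -0.58, ETV4 -0.16, POLR2A -0.45, TNFAIP2 -0.14, MT-RNR2 -0.21, NEAT1 -0.22, MALAT1 -0.34, RN7SL2 -0.022 and RN7SK -0.30. KRT8 was at -0.058 with library totals alone. The share of protein-coding counts, 1.60 percentage points higher in ActD cells, was -1.83 without mitochondrial counts. The difference by exon number (0.58) was 0.67 with the mitochondrial scaling and 0.609 and 0.613 in fits on 6 libraries. The difference by exon length (-0.063) was -0.126 with the ribosomal protein scaling, -0.195 with the stricter filter and -0.155 on 6 libraries. The difference by gene span (0.075) was 0.117 with size factors, 0.121 with the upper quartile, 0.123 with the mitochondrial scaling, 0.121 with no filter, 0.0056 with the stricter filter and 0.116 with DESeq2. The difference by level (0.37) was 0.553, 0.562 with the stricter filter and 0.461 on 6 libraries with the filter of all 12. The causes were not tested.

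Leaving out 1 library at a time gave 5503 to 5783 higher and 6090 to 6649 lower genes and an all-gene median of -0.074 to -0.0021. The differences were 0.557 to 0.608 by exon number, 0.055 to 0.114 by span, -0.081 to -0.032 by exon length, 0.108 to 0.213 by GC content and 0.273 to 0.452 by level. Deviations of same-numbered ActD and control libraries from their group means had correlations of -0.107, -0.117 and -0.136. Other combinations had 0.0159 to 0.0932. Such weak values from 3 libraries per group cannot settle whether replicate numbers pair them. A replicate block gave 5702 higher and 6467 lower genes. Depth limits genes near 0 CPM, and rounded estimated counts limit near-identical copies.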

Other observations

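Stress response genes were divided. Of 17 heat shock genes tested, 8 rose and 8 fell in ActD cells (median 0.12, or -0.52 with the ribosomal protein scaling). DNAJB1, an inducible HSP40 co-chaperone, stood at 25.8, 28.8 and 25.9 CPM in ActD cells, against 204, 242 and 213 CPM in control cells (log2 fold change -3.03, SE 0.067), and HSPA8, the constitutive HSP70, at 1578, 1541 and 1502 CPM in ActD cells, against 3070.4, 3996 and 3651 CPM in control cells (log2 fold change -1.21, SE 0.068). The small heat shock protein gene HSPB1 rose, at 426, 479 and 515 CPM in ActD cells, against 272, 282 and 236 CPM in control cells (log2 fold change 0.85, SE 0.088). Of 27 ATF4 and unfolded protein response genes, 14 fell and 12 rose (median -0.14, or 0.77 with the mitochondrial scaling). The pseudokinase gene TRIB3 and the transcription factor genes XBP1 and CEBPB fell most, beside SESN2 and DDIT4 (log2 fold changes -3.76, -3.54 and -3.13). In none of these genes did the groups overlap.

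Sterol synthesis genes were 16 higher and 8 lower of 24 (median 0.31, or -0.33 with the ribosomal protein scaling). Aminoacyl-tRNA synthetases were 23 higher and 5 lower of 35, but 0 higher and 22 lower with the ribosomal protein scaling (medians 0.39 and -0.25). The mitochondrial synthetases PARS2 and MARS2, for proline and methionine, fell most (log2 fold changes -4.36 and -2.89). Among G1/S genes, 14 rose and 13 fell of 30 (median 0.14, or -0.50 with the ribosomal protein scaling), and the transcription factors E2F8, E2F2 and E2F3 and the phosphatase CDC25A fell (log2 fold changes -2.06, -1.45, -1.37 and -1.80). Among G2/M genes, 16 rose and 9 fell of 33, but 0 rose and 27 fell with the ribosomal protein scaling, and 29 rose with the mitochondrial scaling. Of 20 SR splicing factors and their kinases, 9 fell and 3 rose (median -0.22, or 0.71 with the mitochondrial scaling). The kinase CLK1 stood at 4.79, 6.04 and 5.95 CPM in ActD cells, against 36.1, 36.1 and 41.3 CPM in control cells (log2 fold change -2.75, SE 0.10) and its relatives CLK4 and CLK3 at log2 fold changes of -2.09 and -1.36.

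Chromatin architecture genes were 21 higher and 11 lower of 35, but 1 higher and 28 lower with the ribosomal protein scaling (medians 0.28 and -0.36). CTCF, the insulator protein, stood at 25.7, 27.5 and 24.2 CPM in ActD cells, against 94.2, 106 and 98.9 CPM in control cells (log2 fold change -1.95, SE 0.078), while the histone methyltransferase SUV39H1 fell by 2.13 on the log2 scale. mRNA decay genes were 16 higher (39.0%) and 15 lower (36.6%) of 41, near the 35.4% and 30.0% of protein-coding genes. Their median was 0.056, or -0.58 with the ribosomal protein scaling. SMG8, a regulator of nonsense-mediated decay, TOB2, an adaptor of deadenylation, and CNOT4 fell (log2 fold changes -2.76, -1.91 and -1.62). Of 19 circadian clock genes, 10 fell and 1 rose (median -0.36, or 0.53 with the mitochondrial scaling), with the clock repressors NR1D1 and PER1 at log2 fold changes of -2.78 and -1.41.

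Epithelial markers fell in 5 and rose in 2 of 11 (median -0.53, or 0.39 with the mitochondrial scaling). CDX2, the intestinal transcription factor, stood at 1.83, 2.46 and 2.02 CPM in ActD cells, against 16.3, 16 and 14.5 CPM in control cells (log2 fold change -2.87, SE 0.14), and KRT19 and KRT18 at log2 fold changes of -0.77 and -0.53, or 0.14 and 0.39 with the mitochondrial scaling. CDH1 and EPCAM rose by 0.47 and 0.49 on the log2 scale, and stood at -0.17 and -0.15 with the ribosomal protein scaling. Of the 5 blood and 3 endothelium markers tested, PECAM1 had the lowest unadjusted p from edgeR (0.102, adjusted p = 0.161).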
